A study of Homo sapiens with 8 samples.

Results

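The genes described here are the G1 cyclins, the kinases they activate and the inhibitors that bind those complexes: CCND1, CCND2, CCND3, CCNE1, CCNE2, CDK4, CDK6, CDK2, CDKN1B and CDKN1C. They were listed by name for their role in the G1 phase of the cell cycle, with earlier results of these data known. They are 10 of the 19305 transcript accessions counted, and all 10 were among the 14565 that passed the filter on low counts and were tested. D cyclins assemble with CDK4 or CDK6 and E cyclins with CDK2, and these complexes phosphorylate the retinoblastoma protein and its relatives, which releases E2F transcription factors and lets cells enter S phase. CDKN1B and CDKN1C bind cyclin and kinase complexes and restrain CDK2. Human embryonic stem cells are known for a short G1 phase, and HEK293T cells carry viral proteins that bind the retinoblastoma family.

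RNA sequencing of polyadenylated RNA was analysed from 8 libraries of 2 human cell lines, with 2 libraries in each of 4 groups. HEK293T, an embryonic kidney line that expresses the SV40 large T antigen, was given sodium arsenite, which causes oxidative stress, in all 4 of its libraries. Of these, 2 had a control siRNA and 2 an siRNA to eIF2A, a translation initiation factor. H9 is a human embryonic stem cell line, and its libraries came from cells with control shRNA (2) or shRNA to eIF2A (2), with no arsenite named in the labels. No HEK293T library without arsenite and no H9 library with it was analysed here, so in any comparison of the lines the cell line, the arsenite and the kind of knockdown reagent cannot be told apart. The sources used here do not give the dose and time of arsenite or the number of reagents per gene. The labels number the libraries of a group as sets without naming separate cultures for them. P-values therefore cover only the spread between these libraries, which may be technical.

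The libraries held 21837052 to 32318668 counts assigned to genes. EIF2A, the targeted gene, had CPM values of 17.5 and 18.3 in the control HEK293T libraries and of 5.57 and 5.98 in those with siRNA, where CPM is a gene's count relative to the library's total after scaling by the trimmed mean of M-values. The H9 values were 15.8 and 14.8 CPM under control shRNA, then 5.02 and 4.66 CPM under eIF2A shRNA. Of 9 pluripotency markers, all 9 reached a mean of 1 CPM in the H9 controls and 1 (DNMT3B) did in the HEK293T controls, where NANOG, DPPA4 and L1TD1 had no count. The summed pluripotency markers ranged from 5843 to 5866 CPM in the H9 controls and from 5466 to 5550 CPM with shRNA. LIN28A and DNMT3B made up most of this sum, and single markers went different ways: POU5F1 had means of 179 CPM in the controls and 128 with shRNA, L1TD1 72.1 and 145, and USP44 30.5 and 73.5. Of 5 fibroblast markers, 2 (THY1 and COL1A1) reached 1 CPM in the H9 controls, DCN and LUM had no count there, and the list summed to 877 to 882 CPM in the controls and 710 to 718 CPM with shRNA. THY1 had means of 791 and 593 CPM and COL1A1 of 88.2 and 121. The 3 trophoblast markers summed to 25.5 to 26.2 CPM in the H9 controls and 16.1 to 16.7 CPM with shRNA, nearly all of it KRT7, with no count of GATA3 in the controls. The 3 neural markers summed to 4.66 to 5.63 CPM in the H9 controls and 3.05 to 3.65 CPM with shRNA, mostly SOX1. For the 6 mesoderm and endoderm markers the sums were 5.78 to 6.61 CPM and 4.03 to 4.95 CPM, mostly FOXA2 and MIXL1. THY1 is also a surface antigen of human embryonic stem cells. The part of these shifts in the results on H9 was not tested.

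The sequence upstream of CDK6 is shown because CDK6 had the lowest ratio of H9 to HEK293T controls among the 10 genes and was among the members that rose in H9 with eIF2A shRNA. The window covers bases 250 to 51 before the first RefSeq start listed for the gene, at chr7:92836624-92836823 of GRCh38.p14. It lies on the minus strand of the chromosome and is written 5′ to 3′ along the gene. Capitals mark GC boxes, the letters GGGCGG or their reverse complement CCGCCC, a motif bound by SP1 family factors.
CDK6: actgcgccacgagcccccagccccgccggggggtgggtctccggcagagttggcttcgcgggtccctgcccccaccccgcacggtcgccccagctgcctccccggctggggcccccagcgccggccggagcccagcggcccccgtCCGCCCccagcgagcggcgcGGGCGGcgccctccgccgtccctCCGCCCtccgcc
Of the 10 genes, 5 had a window in the RefSeq table: CCND3, CCNE1, CDK4, CDK6 and CDKN1B. CCND3 had 3 windows there and CDK6 had 2, and only the first listed window of each gene was searched. The number of GC boxes in the searched window was 3 for CDK6, 3 for CDK4, 5 for CCND3, 7 for CCNE1 and 1 for CDKN1B, counted on both strands. At least 1 GC box was found in 35.0% of the 35116 windows of the same 200 bases in the table. The cyclic AMP response element TGACGTCA, found in 0.951% of windows, and the E2F motif TTTCGCGC, found in 0.350%, did not occur in the searched windows of those 5 genes. These matches describe letters only.

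Set against each other, the control libraries of H9 held less CCND1, CCND3, CDK6, CDK2 and CCNE2 RNA than those of HEK293T under arsenite and more CCND2, CCNE1, CDK4 and CDKN1C RNA. With edgeR's quasi-likelihood test, 4 of the 10 genes were higher in H9 and 5 lower at an adjusted p under 0.05. Over all genes tested, 83.5% were called, 42.3% higher and 41.2% lower, so a call in this comparison was common. The median log2 difference of the 10 genes was -0.48, against 0.0026 over all genes. After a smooth trend on transcript GC content and length was removed from every library, it was -0.21, against -0.15 over all genes. In bulk libraries such as these, fewer cells that express a gene and less RNA per cell cannot be told apart.

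**Figure D1:**
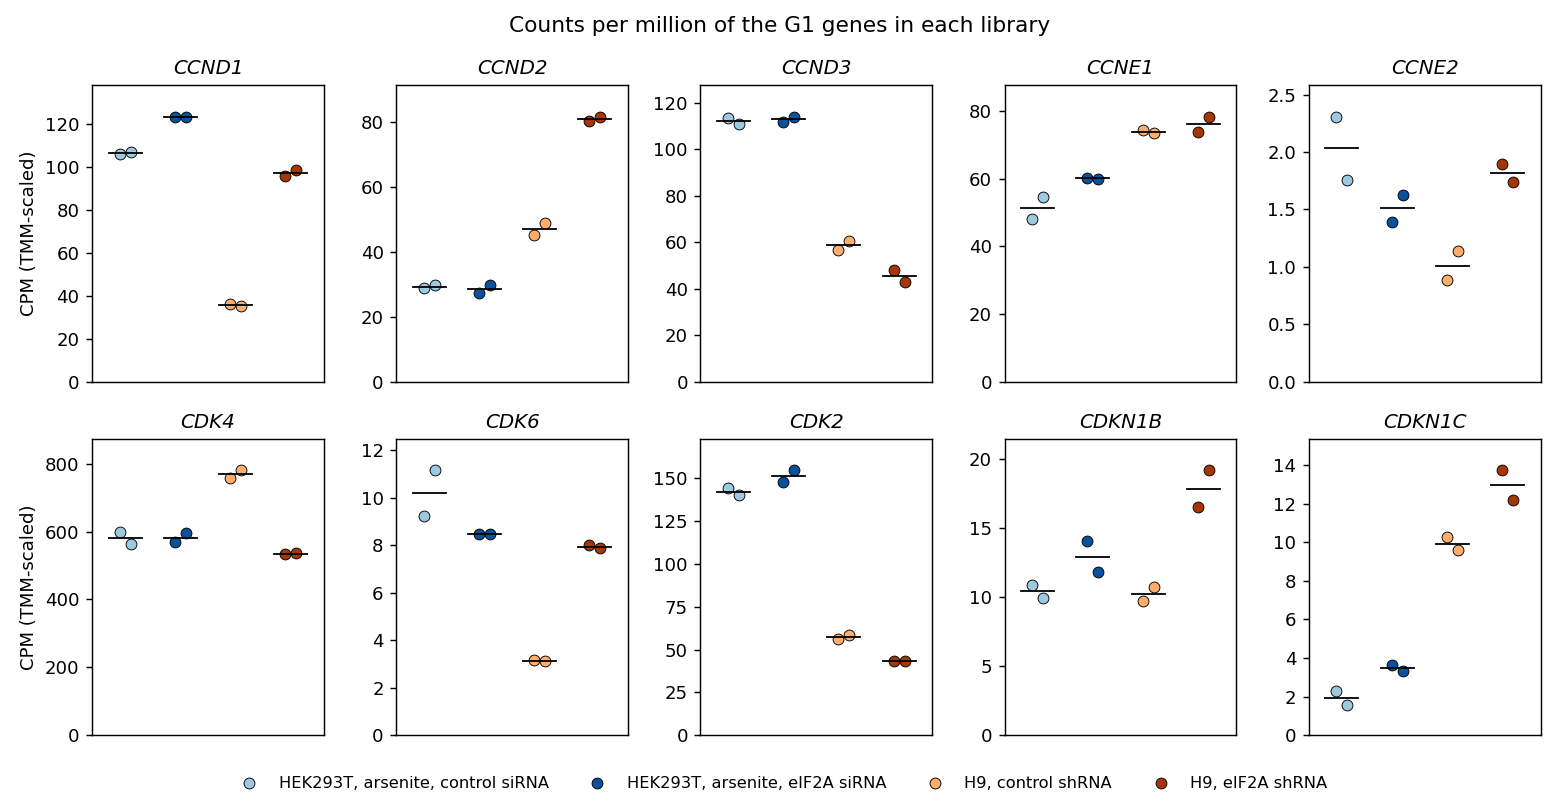
Each panel plots 1 gene, with CPM on the vertical axis from 0; each point is 1 library and each bar the mean of the 2 libraries of a group. CCND1, CDK6 and CDK2 sit lower in the H9 controls than in both HEK293T groups, CDKN1C sits higher, and CCND1, CCND2 and CDK6 are higher in H9 with eIF2A shRNA than in its controls.

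Among the D cyclins, CCND1, the cyclin most closely tied to mitogen signalling, had 106 and 107 CPM in HEK293T controls against 36.2 and 35.1 CPM in H9 controls. The difference was -1.58 ± 0.047 (log2, SE; adjusted p = 2.7e-26), 0.33 times the HEK293T level. CCND3, the D cyclin typical of blood cells and of many differentiated tissues, had 113.5 and 110.8 CPM in HEK293T against 56.8 and 60.3 CPM in H9, a difference of -0.94 ± 0.048 (adjusted p = 3.3e-19). CCND2 went the other way, with 28.8 and 29.7 CPM in HEK293T and 45.1 and 48.8 CPM in H9 (0.68 ± 0.059, adjusted p = 9.8e-13). The libraries of the lines did not overlap for any D cyclin.

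CCNE1, the main E cyclin RNA in every library, had 48.0 and 54.5 CPM in HEK293T controls against 74.4 and 73.4 CPM in H9 controls, a difference of 0.52 ± 0.052 (log2, SE; adjusted p = 4.0e-11). CCNE2, its paralog, rested on 53 and 56 counts in HEK293T and on 19 and 23 counts in H9, or 2.31 and 1.76 CPM against 0.886 and 1.135 CPM. Its difference was -0.98 ± 0.27 (adjusted p = 0.0012), and with the trend on GC content and length removed it was -0.46 and not called (adjusted p = 0.12). With the trend on the longest transcripts removed it was -0.60 and called (adjusted p = 0.042). At such counts the SE of CCNE2 was the widest of the 10 genes. CCNE2 also shares its locus with INTS8 and NDUFAF6 in RefSeq. Ambiguous reads had a counter of their own (0.7625% to 0.9371% of a library), so reads from the overlap may be missing from the CCNE2 counts.

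CDK4 had the most counts of the 10 genes in all 8 libraries. It reached 599.6 and 562.7 CPM in HEK293T controls against 758.3 and 780.3 CPM in H9 controls, a difference of 0.41 ± 0.033 (log2, SE; adjusted p = 1.6e-13). CDK6, the other kinase of D cyclins, had 9.23 and 11.15 CPM in HEK293T against 3.17 and 3.11 CPM in H9 (-1.71 ± 0.14, adjusted p = 1.1e-13). CDK2, the kinase of E cyclins, had 144.5 and 140.0 CPM in HEK293T against 56.3 and 58.4 CPM in H9 (-1.31 ± 0.044, adjusted p = 8.8e-25). All 3 kinases were thus separated between the lines without overlap, CDK4 in one direction and CDK6 and CDK2 in the other. CDK4 overlaps TSPAN31 in RefSeq, whose mean was 22.4 CPM in the HEK293T controls and 31.4 CPM in the H9 controls.

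Of the inhibitors, CDKN1C, an imprinted gene expressed in development, was the member with the largest difference between the lines as measured. It had 53 and 50 counts in the HEK293T controls and 220 and 194 in the H9 controls, or 2.31 and 1.57 CPM against 10.26 and 9.58 CPM. The difference was 2.39 ± 0.16 (log2, SE; adjusted p = 3.7e-16), or 5.26-fold. With the trend on GC content and length removed it was 1.86, and CDK6 had the larger difference at -2.14. With the longest transcripts these values were 1.90 for CDKN1C and -1.96 for CDK6. CDKN1B, which is regulated largely through the stability of its protein, had 10.9 and 9.96 CPM in HEK293T against 9.70 and 10.7 CPM in H9. The libraries overlapped, and the difference of -0.02 ± 0.11 did not pass the test (adjusted p = 0.84).

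The sign of 3 of these values turned when the knockdown libraries of both lines were compared in place of the controls. CDK4 was then lower in H9 (-0.12, adjusted p = 0.0011), CDKN1B was higher (0.46, adjusted p = 2.2e-05), and CCNE2 stood at 0.27 without passing the test (adjusted p = 0.28). CDK6 no longer differed beyond the test (-0.09, adjusted p = 0.44), and CCND1 was still lower but by less (-0.35). The other genes kept their direction and their call there. The median log2 difference of all genes was 0.18 in that comparison, against 0.0026 with the controls.

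The levels of different genes were compared per length, as CPM per kilobase of the counted transcript. In the HEK293T controls the order ran from CDK4 (279.9 CPM per kilobase) through CDK2 (61.9), CCND3 (50.2), CCNE1 (25.1), CCND1 (24.8), CDK6 (6.96), CCND2 (4.51), CDKN1B (3.92) and CDKN1C (1.005) to CCNE2 (0.747). CCNE1 and CCND1 did not differ beyond the spread of the 2 libraries, and neither did CDKN1C and CCNE2. In the H9 controls the order ran from CDK4 (370.6 CPM per kilobase) through CCNE1 (36.2), CCND3 (26.2), CDK2 (25.0), CCND1 (8.28), CCND2 (7.24), CDKN1C (5.14), CDKN1B (3.84) and CDK6 (2.14) to CCNE2 (0.371), and CCND3 and CDK2 did not differ beyond their spread. CDK4 thus led and CCNE2 came last in both lines, while CCNE1 stood directly behind CDK4 in H9 and CDK2 did in HEK293T. The place of CDK6 depends on its length: the accession counted was matched to a model of 1465 nucleotides, and with the longest coding transcript of 11612 nucleotides its level was 0.878 CPM per kilobase in HEK293T and 0.270 in H9.

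With eIF2A siRNA the order in HEK293T was CDK4 (280.0 CPM per kilobase), CDK2 (65.8), CCND3 (50.5), CCNE1 (29.5), CCND1 (28.7), CDK6 (5.78), CDKN1B (4.86), CCND2 (4.41), CDKN1C (1.80) and CCNE2 (0.554). CDKN1B and CCND2 overlapped there. With eIF2A shRNA the order in H9 was CDK4 (257.5 CPM per kilobase), CCNE1 (37.3), CCND1 (22.6), CCND3 (20.3), CDK2 (18.9), CCND2 (12.5), CDKN1B (6.71), CDKN1C (6.71), CDK6 (5.42) and CCNE2 (0.667), with overlap of CDKN1B and CDKN1C. CCND1 stood above CCND3 and CDK2 in this group only.

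Shares within a family need no scaling between libraries. CCND1 made up 30.8% and 31.5% of D cyclin RNA per kilobase in the HEK293T controls and 20.6% and 19.1% in the H9 controls. CCND2 made up 5.56% and 5.78% in HEK293T and 17.0% and 17.6% in H9. CCND3 was the largest share in both, at 63.6% and 62.7% in HEK293T and 62.4% and 63.3% in H9. The lines thus differed in how CCND1 and CCND2 shared what CCND3 left, and the CCND3 shares overlapped. With 2 libraries against 2, an exact permutation test cannot go below p = 0.333, so the shares are given as values without a test.

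**Figure D2:**
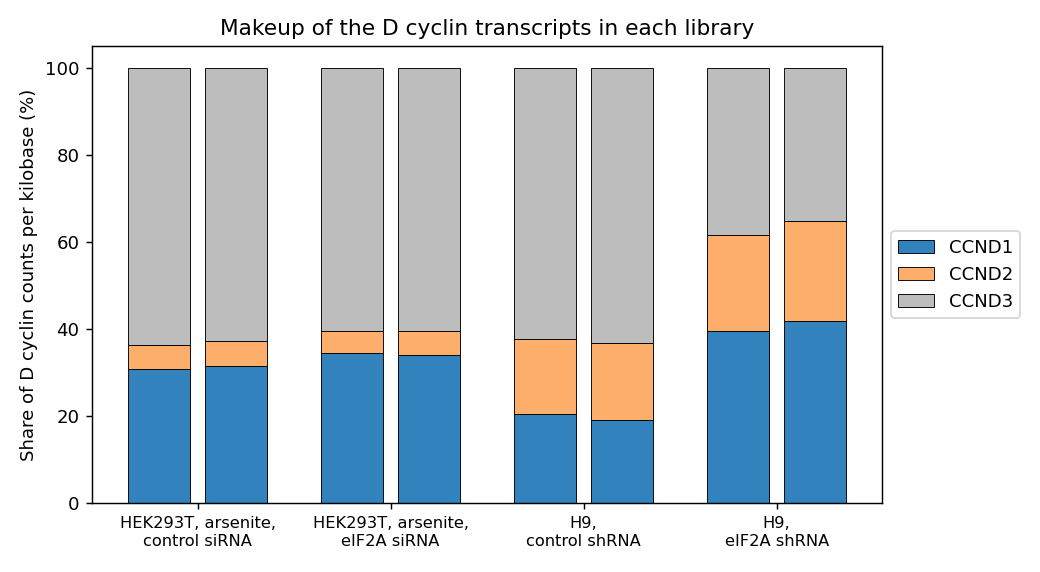
Each stacked bar is 1 library, and its parts are the percentages of CCND1, CCND2 and CCND3 in the summed D cyclin counts per kilobase. CCND3 is above 60% in the HEK293T libraries and the H9 controls and falls to 38.3% and 35.1% in H9 with eIF2A shRNA, where CCND1 is the largest part.

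The E cyclins, the D cyclin kinases and the inhibitors had makeups of their own. CCNE1 was 97.1% ± 0.79 of E cyclin RNA per kilobase in the HEK293T controls and 98.98% ± 0.19 in the H9 controls (SD, n = 2). CDK4 was 97.6% ± 0.42 of CDK4 and CDK6 in HEK293T and 99.4% ± 0.019 in H9. These CDK4 shares depend on the length taken for CDK6, and with the longest coding transcripts they were 99.69% and 99.93%. CDKN1B was 79.8% ± 3.4 of CDKN1B and CDKN1C in HEK293T and 42.8% ± 2.9 in H9, so CDKN1C was the larger part in the H9 controls. With raw counts in place of counts per kilobase, CDKN1B was 50.7% there. In H9 with eIF2A shRNA, CDKN1B was 46.6% in 1 library and 53.4% in the other, per kilobase. Summed per kilobase, D cyclins stood to E cyclins as 3.09 to 1 in the HEK293T controls and as 1.14 to 1 in the H9 controls (means of 2 libraries), and CDK4 stood to CDK2 as 4.52 and 14.8 to 1.

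The question of the HEK293T knockdown comparison is what changed with eIF2A siRNA in cells under arsenite. CDKN1C, CDKN1B, CCNE1 and CCND1 rose, CDK6 fell, and the other 5 genes did not pass the test. Among all genes tested 28.7% were called, 14.1% higher and 14.7% lower, and calls of at least 1.5-fold made up 0.899% higher and 1.22% lower. With the trend on GC content and length removed from every library, the same 5 members were called against 27.5% of all genes (14.5% higher and 13% lower). The median change of the 10 genes was 0.05 (log2), against -0.0032 over all genes. Reads in no feature made up 15.59% and 17.68% of the HEK293T control libraries and 14.98% and 14.95% of those with siRNA. Their part in these changes was not tested.

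Among the inhibitors, CDKN1C counts went from 53 and 50 to 107 and 96, or from 2.31 and 1.57 CPM to 3.64 and 3.32 CPM. The libraries did not overlap, and the rise of 0.88 ± 0.18 (log2, SE; adjusted p = 3.2e-04) or 1.84-fold was the only one of the 10 past 1.5-fold. CDKN1B went from 10.9 and 9.96 CPM to 14.07 and 11.8 CPM (0.32 ± 0.099, adjusted p = 0.014). This call was lost without siRNA replicate 1 (adjusted p = 0.31), without control replicate 2 (0.13) and with DESeq2 (0.081).

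CCND1 rose from 106 and 107 CPM to 123.6 and 123.6 CPM in HEK293T, by 0.21 ± 0.039 (log2, SE; adjusted p = 5.5e-05). CCNE1 rose from 48.0 and 54.5 CPM to 60.4 and 59.98 CPM, by 0.22 ± 0.052 (adjusted p = 9.8e-04). Both changes were about as large as 1.16-fold and 1.17-fold, and neither gene's groups overlapped. CDK6 went from 9.23 and 11.15 CPM to 8.46 and 8.46 CPM (-0.28 ± 0.10, adjusted p = 0.034), and this call was lost without control replicate 2 (-0.12, adjusted p = 0.56), without either siRNA replicate (adjusted p = 0.12 both times), with the trend removed together with a replicate block (0.050) or with the longest transcripts (-0.22, adjusted p = 0.11), with only the 4 HEK293T libraries (0.055) and with DESeq2 (0.20).

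CDK4 was at 567.8 and 594.7 CPM with siRNA, inside the range of its controls, with a difference of 0.00084 ± 0.033 (log2, SE; adjusted p = 1.0). CCND3 at 111.8 and 114 CPM and CCND2 at 27.3 and 29.9 CPM overlapped their controls as well (differences of 0.01 ± 0.043 and -0.04 ± 0.061). CDK2 at 147.5 and 154.6 CPM lay above both controls by 0.09 ± 0.038 without passing the test (adjusted p = 0.083), and it passed without control replicate 1 (0.11, adjusted p = 0.021). CCNE2, with 41 and 47 counts, differed by -0.40 ± 0.23 (adjusted p = 0.20).

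In H9, CCND1, CDK6, CCNE2, CDKN1B, CCND2 and CDKN1C rose with eIF2A shRNA, CDK4, CDK2 and CCND3 fell, and CCNE1 did not pass the test. These are 9 of 10 genes called, against 71.3% of all genes tested (37% higher and 34.3% lower), so the count itself stands near the background. The median change of the 10 genes was 0.59 (log2), against 0.02 over all genes, and with the trend on GC content and length removed it was 0.20, against -0.0030. DESeq2 put 41.9% of its calls higher, against 51.9% with edgeR. The change of a gene in this comparison was related to its transcript's makeup: across 14489 genes, which are not independent replicates, it had a rank correlation of -0.675 with GC content and 0.454 with length. Reads in no feature made up 18.84% and 18.39% of the H9 control libraries and 20.84% and 20.63% of those with shRNA, and their part in these changes was not tested. The fitted change of each of the 10 genes is given also with the trend removed, which shares and sums per kilobase are not. The removal left 49.7% of genes called (22.5% higher and 27.2% lower) and 5 of the 10 genes higher and 2 lower.

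**Figure D3:**
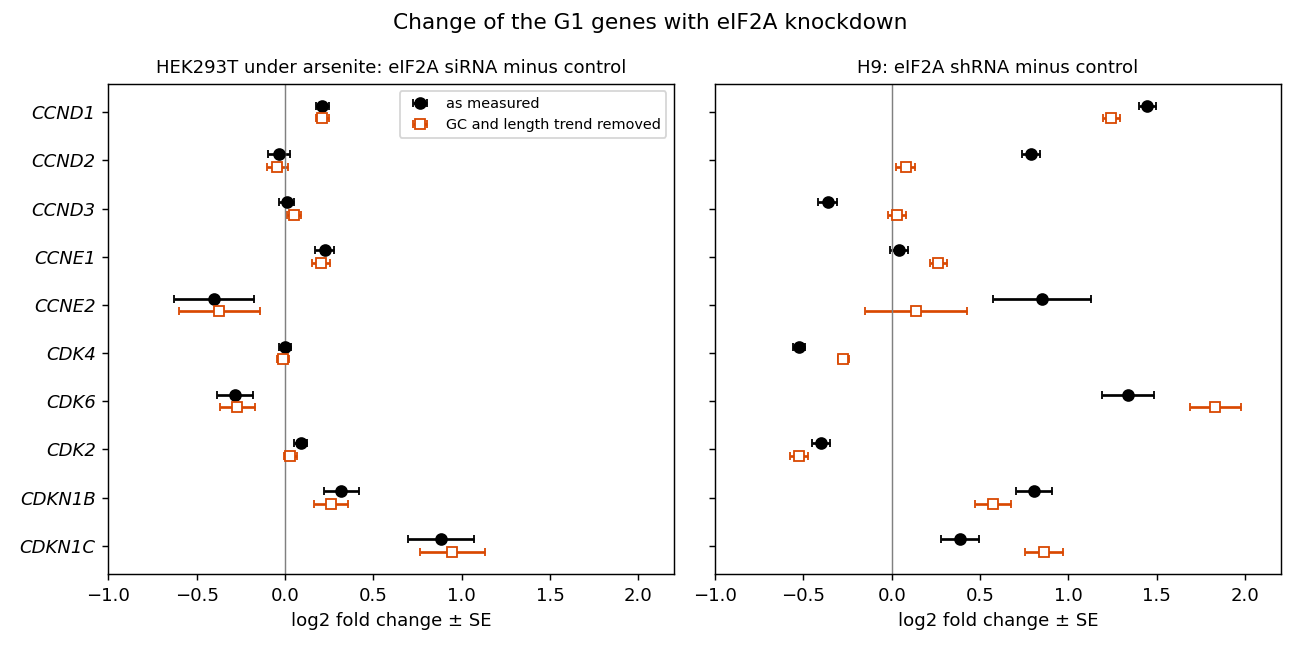
Points are log2 fold changes and bars their SE, for the HEK293T knockdown under arsenite on the left and the H9 knockdown on the right; filled circles are as measured and open squares have the trend on GC content and length removed. The HEK293T values of each gene lie close together, while in H9 CCND2 goes from 0.79 to 0.08 and CCND3 from -0.36 to 0.03.

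CCND1 in H9 went from 36.2 and 35.1 CPM to 95.8 and 98.6 CPM. The groups stood far apart, by 1.45 ± 0.048 (log2, SE; adjusted p = 3.5e-23) or 2.73-fold, and by 1.24 ± 0.047 with the trend removed (adjusted p = 2.2e-23). Calls of at least 1.5-fold took 26.3% of all genes higher in this comparison and 7.89% lower. CCND2 went from 45.1 and 48.8 CPM to 80.4 and 81.7 CPM (0.79 ± 0.052, adjusted p = 2.2e-15), but stood at 0.08 with the trend removed (adjusted p = 0.23) and at 0.13 with the trend on the longest transcripts removed (adjusted p = 0.035). CCND3 went from 56.8 and 60.3 CPM to 48.0 and 42.9 CPM (-0.36 ± 0.054, adjusted p = 2.6e-07), and stood at 0.03 with the trend removed (adjusted p = 0.68). CCND1 was called in each of these fits. The transcript of CCND2 was the same in both trend fits, so its call there depended on the transcripts taken for the other genes.

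The D cyclin makeup moved with these changes. CCND1 went from 20.6% and 19.1% of D cyclin RNA per kilobase to 39.6% and 41.9%, and CCND2 from 17.0% and 17.6% to 22.1% and 23.0%. CCND3 went from 62.4% and 63.3% to 38.3% and 35.1%. The summed D cyclins were at 41.8 CPM per kilobase in the controls and 55.4 with shRNA (means of 2 libraries). In HEK293T the CCND1 share went from 30.8% and 31.5% to 34.6% and 34.0%, and the CCND3 share from 63.6% and 62.7% to 60.3% and 60.5%.

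CCNE1 had 74.4 and 73.4 CPM in H9 controls against 73.9 and 78.4 CPM with shRNA, with overlap and a difference of 0.04 ± 0.051 (log2, SE; adjusted p = 0.47). Its sign depended on the scaling: it was -0.12 with DESeq2's size factors (adjusted p = 0.033), which lowered the median of all genes by 0.15. With upper-quartile scaling, which raised that median by 0.071, CCNE1 stood at 0.11 (adjusted p = 0.040). With the trend removed it stood at 0.26 (adjusted p = 1.6e-05). CCNE2 went from 19 and 23 counts to 49 and 41 counts (0.85 ± 0.28, adjusted p = 0.0073). That call was lost with the trend removed (0.14, adjusted p = 0.72), with DESeq2 (0.10) and without control replicate 1 (0.087). The overlapping gene INTS8 rose by 0.97 in the same comparison and stood at 0.03 with the trend removed (adjusted p = 0.84). NDUFAF6 stood at 0.05, and at -0.32 with the trend removed (adjusted p = 0.011).

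CDK4 fell in H9 from 758.3 and 780.3 CPM to 532.4 and 536.9 CPM. The difference was -0.52 ± 0.033 (log2, SE; adjusted p = 6.4e-16), or 0.70 times the control level, and it was -0.27 with the trend removed (adjusted p = 3.5e-09). CDK2 fell from 56.3 and 58.4 CPM to 43.2 and 43.5 CPM (-0.40 ± 0.050, adjusted p = 9.4e-09), and by more with the trend removed (-0.53, adjusted p = 2.1e-11). Both kinases were called in every alternative run, and their groups did not overlap.

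CDK6 went from 68 and 63 counts in the H9 controls to 207 and 186 counts with shRNA, or from 3.17 and 3.11 CPM to 8.0 and 7.89 CPM. The groups were 2.53-fold apart (1.34 ± 0.15, log2, SE; adjusted p = 5.4e-10). What the trend removal did to CDK6 depended on the transcript taken for it. With the matched model of 1465 nucleotides and 58.2% GC the change was 1.83 (adjusted p = 8.0e-14), and with the longest coding transcript, at 39.5% GC, it was 0.18 (adjusted p = 0.34). The sources used here do not give the model that the accession had when it was counted.

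**Figure D4:**
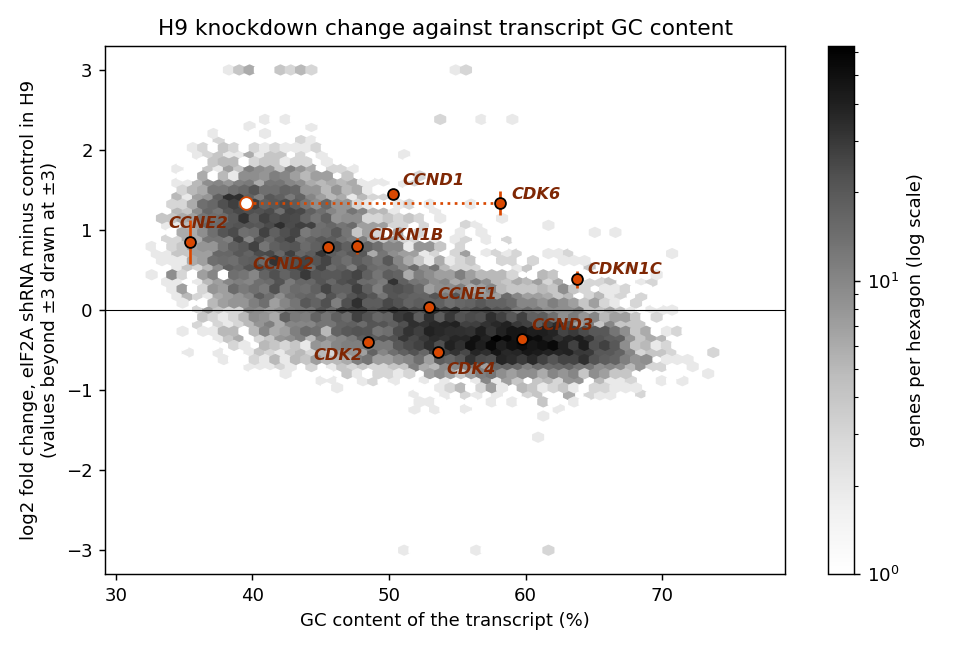
The log2 fold change in H9 is plotted against the GC content of the transcript in percent, with all genes as hexagons shaded by number on a log scale and the 10 genes as filled points with SE bars; the open circle puts CDK6 at the GC content of its longest coding transcript. Genes of low GC content lie higher, CCND1 and CDKN1C lie above most genes of like GC content, and CDK6 lies within the cloud or above it depending on the transcript.

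CDKN1B in H9 went from 9.70 and 10.7 CPM to 16.5 and 19.2 CPM. Its libraries did not overlap, and it was called as measured (0.80 ± 0.10, log2, SE; adjusted p = 1.4e-08; 1.75-fold) and with the trend removed (0.57, adjusted p = 8.5e-06). CDKN1C went from 10.26 and 9.58 CPM to 13.7 and 12.2 CPM (0.39 ± 0.11, adjusted p = 0.0019; 1.31-fold) and stood at 0.86 with the trend removed (adjusted p = 9.5e-09). The CDKN1C call was lost with DESeq2 (0.23), with DESeq2's size factors in edgeR (0.23 on the log2 scale, adjusted p = 0.055) and without shRNA replicate 1 (0.061). Summed per kilobase, the inhibitors were at 8.98 CPM in the controls and 13.4 with shRNA (means of 2 libraries).

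Whether the change with knockdown differed between H9 and HEK293T was tested directly as the difference of both contrasts. All 10 genes passed, 5 in each direction, against 58.1% of all genes tested (31.1% higher in H9 and 27% lower); with DESeq2's size factors the higher share of all calls was 42.5%, against 53.5%. The difference was 1.23 ± 0.062 for CCND1 (log2, SE; adjusted p = 1.3e-17), 0.82 ± 0.080 for CCND2 (9.0e-11), 1.62 ± 0.18 for CDK6 (1.5e-09), 1.25 ± 0.36 for CCNE2 (0.0031) and 0.48 ± 0.14 for CDKN1B (0.0042). It was -0.53 ± 0.047 for CDK4 (adjusted p = 1.1e-11), -0.49 ± 0.063 for CDK2 (3.3e-08), -0.37 ± 0.069 for CCND3 (1.7e-05), -0.50 ± 0.22 for CDKN1C (0.048) and -0.18 ± 0.072 for CCNE1 (0.031). The calls of CDKN1C and CCNE1 were each lost in 6 of the 8 fits that left out 1 library.

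With the trend on GC content and length removed, 4 of the 10 genes still differed between the knockdown contrasts, against 42.8% of all genes (19% higher and 23.8% lower). These were CCND1 (1.03), CDK6 (2.10), CDK4 (-0.26) and CDK2 (-0.55), on the log2 scale. Between the line controls the trend removal left 4 of the 10 genes higher in H9 and 4 lower, against 84.6% of all genes (37.1% higher and 47.5% lower). In the difference of the knockdown contrasts, CCND2 stood at 0.12 (adjusted p = 0.24) and CDKN1B at 0.31 (adjusted p = 0.072). With the longest transcripts, CDK6 was not called (0.40, adjusted p = 0.074) and CDKN1B was (0.41, adjusted p = 0.018). The members called thus depended on the transcripts taken over all genes, as that of CDKN1B itself was the same in both fits.

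The wider pathway was described with 32 genes fixed by name, among them other inhibitors, the retinoblastoma and E2F families, and the ubiquitin ligase parts that degrade cyclins or inhibitors. All 32 were tested. In HEK293T with siRNA, 10 were higher and 3 lower (median 0.03, log2), against 14.1% and 14.7% of all genes. In H9 with shRNA, 16 were higher and 8 lower (median 0.38), against 37% and 34.3% of all genes, and with the trend removed 9 were higher and 9 lower (median 0.04). Between the controls 6 were higher in H9 and 19 lower (median -0.38), against 42.3% and 41.2% of all genes, and with the trend removed 5 were higher and 22 lower (median -0.48).

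CDKN1A, the p53-responsive inhibitor of the same family as CDKN1B, rose in both lines: by 0.42 ± 0.066 (log2, SE) in HEK293T, and by 1.34 ± 0.072 in H9, or 1.70 with the trend removed. RB1, RBL1 and RBL2, the retinoblastoma protein and its relatives, rose in H9 by 1.46 ± 0.15, 1.48 ± 0.16 and 1.24 ± 0.15, and were at 0.52, 0.49 and 0.45 with the trend removed. In HEK293T, RB1 stood at -0.17 ± 0.14 (adjusted p = 0.42). E2F8 and CUL1, a repressive E2F and a ligase scaffold, rose in H9 by 1.36 ± 0.13 and 1.28 ± 0.056, and by 1.03 and 0.74 with the trend removed.

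Other pathway genes called in H9 moved to different extents when the trend was removed. The 1.5-fold rule, set on values as measured, passed over genes with smaller changes in both directions. CKS1B and E2F4, picked after their values were seen from the 8 genes called lower against 16 higher, stood at -0.54 and -0.57. With the trend removed they stood at -0.65 and -0.18. E2F3, an activating E2F, rose by 0.86 ± 0.064 (log2, SE; 0.23 with the trend removed). E2F7, a repressive one, rose by 0.96 ± 0.087 but stood at 0.12 with the trend removed (adjusted p = 0.27), and FBXW7, which targets CCNE1 protein for degradation, rose by 0.99 ± 0.19 and stood at 0.36 (adjusted p = 0.12). TFDP2, a partner of E2F proteins, rose by 0.62 ± 0.050. It was at 0.54 with the trend removed and at -0.06 with the longest transcripts. E2F1 fell by 0.21 ± 0.044 and SKP2, the ligase subunit that targets CDKN1B protein, rose by 0.20 ± 0.050, and both signs turned with the trend removed (0.18 and -0.60). In HEK293T, E2F1 fell by 0.24 ± 0.042 and SKP2 stood at 0.04 (adjusted p = 0.57).

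A few pathway genes, named after their values were seen, differed widely between the line controls. CDKN2A, which encodes an inhibitor of CDK4 and CDK6, had a mean of 316 CPM in the HEK293T controls and 2 and 4 counts in the H9 controls. CDKN2C, another inhibitor of those kinases, had 1438 and 2235 counts in the HEK293T controls and none in either H9 control, at least 449-fold lower with a floor of 3 counts per library. MYCN had a mean of 0.284 CPM in the HEK293T controls and 94.7 CPM in the H9 controls, and MYC, its relative, had 301.7 and 49.2 CPM.

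The genes with the most similar profile over the 8 libraries were found for the 3 members with the largest difference between the line controls. Likeness was measured as the root mean square difference of centred log2 CPM among 12956 genes. The closest to CDKN1C were TXNIP (0.159), TGFA (0.218) and OAS3 (0.231). CDK6 had SNRNP48 (0.0769), PRPF38B (0.0989) and RBM26 (0.104), and CCND1 had SEC23A (0.0870), TAPT1 (0.117) and IFNAR1 (0.127). These 8 libraries form 4 groups, so likeness here rests mostly on 4 levels.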

How the data were processed

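The authors deposited unnormalized read counts, 1 whole number for each RefSeq accession in each library. Per the labels' protocols, libraries came from a TruSeq Stranded mRNA kit, which keeps strand. Per the submitters' processing notes, cutadapt, STAR 2.5.2b and the hg19 build were used. For the counting tool, its strand setting and its annotation: not given in the sources used here. Counters for reads that were not assigned stayed out of library sizes and tests; reads in no feature ran from 14.95% to 20.84% and reads not placed uniquely from 4.106% to 4.542%. Symbols came from RefSeq for 18888 accessions and from GENCODE for 222, and 195 had none. Transcript length and GC content came from GENCODE v29 transcripts, and upstream windows from RefSeq on GRCh38.p14, whose coordinates are not those of the counting build.

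All 8 libraries were fitted together with 4 group means (4 residual degrees of freedom) in edgeR 4.0.16 under R 4.3.3: filterByExpr, TMM scaling, a two-sided quasi-likelihood test and Benjamini-Hochberg adjustment over 14565 genes, with calls at an adjusted p under 0.05. Depth limits genes with few counts, as their SE shows. The trend on GC content and length was fitted in each library with mgcv 1.9.3 and entered as offsets for 14489 genes. Alternatives used DESeq2 1.42.0, limma 3.58.1, other scalings, filters and thresholds, a replicate block, and 1 library left out at a time. The genes and lists were chosen with earlier results of these data known. The rule for named genes took all 10 members, EIF2A, pathway genes called in a knockdown contrast with at least 1.5-fold change, CDKN1A, RB1, E2F1 and SKP2, and the 3 most similar genes for 3 members. Replicates were no duplicates: their counts differed by 1.35 to 4.91 times sampling noise (chi-square per degree of freedom). The value of 4.91 was that of the HEK293T controls, and the other groups were at 1.80 or below. The code was tested on simulated data.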

Additional observations from a re-analysis of the deposited data

Results flagged for a closer look

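In the direct test of H9 against HEK293T, the change with eIF2A knockdown differed for all 10 genes as measured, which is why each is listed here. The difference of the log2 fold changes (H9 minus HEK293T) was 1.23 for CCND1, 0.82 for CCND2, -0.37 for CCND3, -0.18 for CCNE1 and 1.25 for CCNE2. It was -0.53 for CDK4, 1.62 for CDK6, -0.49 for CDK2, 0.48 for CDKN1B and -0.50 for CDKN1C. The contrasts differ also in arsenite and in siRNA against shRNA, which cannot be told apart from the cell line, and 58.1% of all genes tested were called in the same comparison. With the trend on GC content and length removed, 4 of the 10 genes were called, against 42.8% of all genes. CCNE1 then stood at 0.059 without passing the test (adjusted p = 0.53).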

How the results depend on the processing

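Outside the fits that left out 1 library, alternatives for the 10 genes in 4 comparisons gave, where the gene was called, 341 values that kept direction and call, 44 that lost the call and 7 that turned sign. Where it was not called, 65 stayed so with the same sign and 13 with the other, 4 gained a call, and 2 gained one with the other sign. In the fits that left out 1 library, 245 kept direction and call, 19 lost the call, 48 stayed uncalled with the same sign and 7 with the other, and 1 gained a call. CCND1 kept direction and call in all 4 comparisons and in every alternative that was run. No pairing by set number was seen: deviations of same-numbered libraries correlated at -0.0998 in HEK293T and -0.0101 in H9. These correlations cannot show that the sets were prepared separately. With the number as a replicate block, 4079 genes and 5 members were called in HEK293T, 10348 and 9 in H9, 8421 and 10 in the difference of the contrasts and 12141 and 9 between the lines, and the block alone changed no call of a member. In HEK293T, DESeq2 called 2751 genes against 4182, and 3 members against 5, with 3671 genes and 1 member left without an adjusted p; an adjusted p under 0.01 called 3 members, and leaving out 1 library called 3 to 6. With the trend on GC content and length removed, 4 members against 10 were called in the difference of the contrasts, as with the replicate block added or the longest transcripts used, where CDKN1B took the place of CDK6. Signs that turned in H9 were those of CCND3 (0.029 with the trend removed, with or without the block), E2F1 (0.18 both times, 0.21 with the longest transcripts), SKP2 (-0.60 both times, -0.55 with the longest), TFDP2 (-0.060 with the longest) and CCNE1 (-0.12 with DESeq2's size factors). In the difference of the contrasts CCNE1 turned to 0.059 with the trend removed, to 0.055 with the block as well and to 0.15 with the longest transcripts. Between the lines, the knockdown libraries in place of the controls gave 0.27 for CCNE2, -0.12 for CDK4 and 0.46 for CDKN1B, and raised the median of all genes by 0.18. The longest coding transcripts were added as an alternative after seeing the data. The cause of these shifts was not tested. Shares between the line controls (H9 minus HEK293T, in percentage points) moved with the length used: from -11.3 to -17.7 with raw counts for CCND1, from 11.7 to 21.5 with raw counts and 12.2 with the longest transcripts for CCND2, from -0.36 to -3.74 with raw counts for CCND3, and from 1.86 to 1.32 with raw counts and 0.24 with the longest transcripts for CDK4. A filter at 5 CPM left CCNE2 untested, and CCNE2, CDK6 and CDKN1C rest on the fewest counts. Upper-quartile scaling and the trend removal lowered the median of all genes between the lines by 0.16 and 0.15, and DESeq2's size factors lowered that of the difference of the contrasts by 0.15.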
